A study of Mus musculus with 6 samples.

Results

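Fgfr1, Fgfr2 and Fgfr3 encode the fibroblast growth factor (FGF) receptors, and Spry1, Spry2, Spry4, Etv1, Etv4, Etv5 and Dusp6 are transcripts that FGF and ERK signaling is known to induce and that mostly act back on it. These 10 genes were chosen by symbol, of 24421 gene symbols listed for each library, and all 10 passed the filter on low values. Their RNA was measured in cells sorted from the olfactory bulb of 6 adult male mice, 3 control and 3 Sox9 KO. Every mouse, controls included, had received AAV-GFAP-iCre-P2a-TurboRFP in the olfactory bulb, a virus in which the astrocyte promoter GFAP drives the recombinase Cre and the red fluorescent protein TurboRFP. The KO mice were Sox9fl/fl and the controls are labelled WT, from C57BL/6J mice, with the strain given as C57BL/6 for all 6. Cells were taken 4 weeks after the injection by their TurboRFP fluorescence, so that the sort depended in part on where the GFAP promoter was active. What else decided which cells passed the sort was not tested.

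FGF receptors are tyrosine kinases that bind FGF ligands together with heparan sulfate chains and pass the signal through the adaptors FRS2 and GRB2 to RAS, RAF, MEK and ERK. Active ERK induces the PEA3 group of ETS transcription factors (Etv1, Etv4 and Etv5), the Sprouty proteins, which block the pathway upstream of ERK, and the phosphatase Dusp6, which removes the activating phosphates from ERK itself. In the brain, FGF signaling is known for its part in the specification and maturation of astrocytes, and Fgfr3 is a common marker of astrocytes and their precursors.

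Levels are given as normalized counts, which are reads per gene divided by 1 size factor per library. Between 18242129 and 86906527 reads fell on genes per library, and the ribosomal precursor Rn45s took 14.2 to 22.4% of them. Sox9, the targeted gene, was at 5185, 6562 and 4921 normalized counts in control replicates 1, 2 and 3 and at 52.6, 64.3 and 57.7 in KO replicates 1, 2 and 3. Its log2 fold change in KO was -6.54 ± 0.15 (SE, adjusted p = 2.5e-09), and every KO library lay below every control library. The paper places Sox9 expression in astrocytes, whose markers fell too, so the Sox9 level alone does not check the genotype.

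The sorted cells were also checked against cell type markers. All 12 astrocyte markers were detected in every library and all 12 fell in KO, by log2 fold changes between -4.51 and -2.72, and their summed level was 541773 to 606580 normalized counts in control and 39019 to 50886 in KO. Of 11 microglia markers, 10 rose, by log2 fold changes between 1.43 and 2.42. The other 1 was at 0.16 and not called (limma adjusted p = 0.70), with KO libraries from 8915 to 29098 normalized counts. The summed level of all 11 was 165617 to 193967 in control and 580269 to 687093 in KO. Slc1a2, a glutamate transporter of astrocytes, averaged 258895 ± 18157 in control and 13677 ± 4943 in KO (SD, n = 3), and Csf1r, a receptor of microglia and macrophages, averaged 36390 ± 4827 and 145495 ± 22232. In bulk samples, fewer cells of a type and less RNA per cell cannot be told apart, so each member is set beside both marker lists further on.

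Of the 10 members, 7 fell, 2 rose and Etv5 was not called. A gene was called at an adjusted p under 0.05 and a change of at least 1.5-fold in limma's moderated test over all 18413 genes tested, on log2(normalized count + 1). This threshold called 51% of all genes tested, with 28.8% lower and 22.2% higher in KO. The control and KO libraries did not overlap for 9 members, against 67.2% of all genes tested. The median log2 fold change of the members was -3.69, and that of all genes tested was -0.07. All values are from 3 libraries per group. The limma p-values set a change against the spread between them, with each gene's variance drawn toward a trend over all genes tested. Without that trend, the limma adjusted p was 0.0001 for Fgfr1, 9.9e-05 for Fgfr3 and 0.0044 for Spry1.

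**Figure D1:**
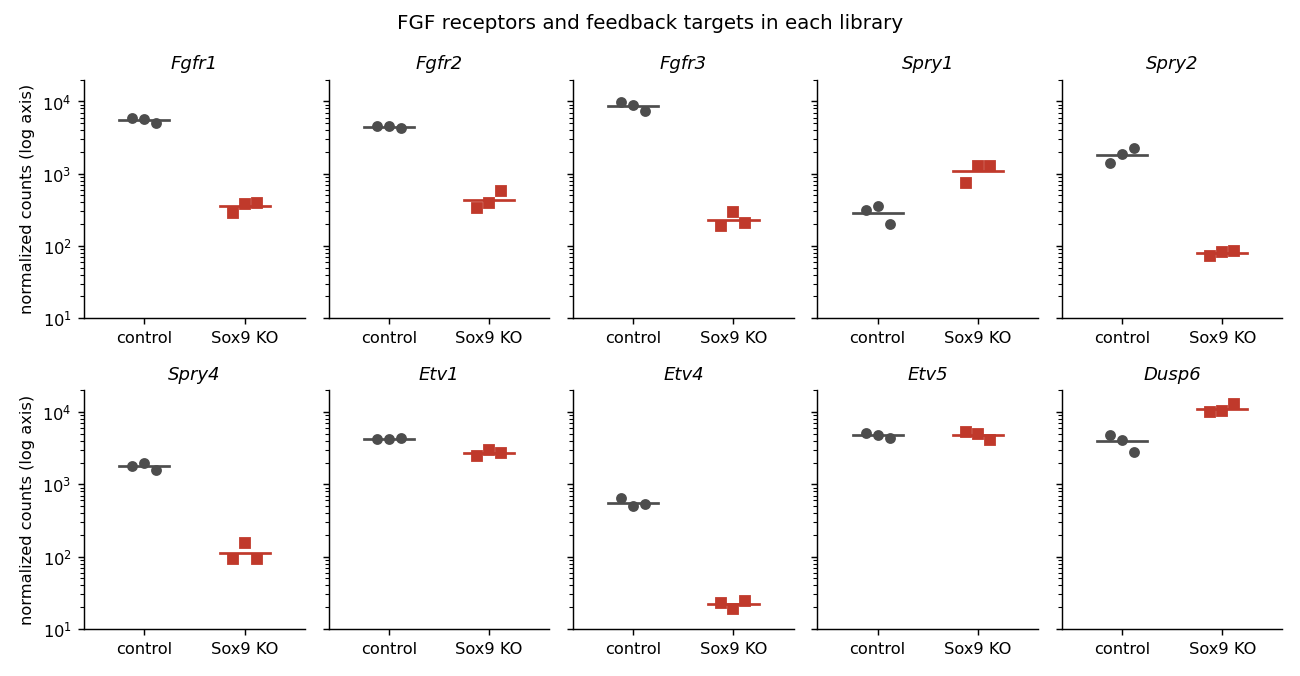
Normalized counts of the 10 members on a log axis, with 1 point per library (circles, control; squares, Sox9 KO) and a line at the group mean. The KO points lie below all control points for 7 genes and above them for Spry1 and Dusp6. For Etv5 the ranges of the 2 groups overlap.

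All 3 receptors fell. Fgfr3, on chromosome 5 (mm10, chr5:33721724-33737068, plus strand), fell the most of the 10 members. It was at 9773, 9059 and 7467 normalized counts in control replicates 1, 2 and 3 and at 190, 300 and 208 in KO replicates 1, 2 and 3. The lowest control library was far above the highest KO library. The log2 fold change was -5.25 ± 0.17 (SE, adjusted p = 8.9e-09), a level 38.1 times lower on that scale.

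Fgfr1 (chr8:25518759-25575718, plus strand), a receptor of many neural cell types, was at 5961, 5702 and 4967 normalized counts in the controls and at 285, 376 and 395 in the KO libraries. Its log2 fold change was -3.98 ± 0.14 (adjusted p = 1.1e-08), or 15.8 times lower. Fgfr2 (chr7:130162451-130266808, minus strand), which oligodendrocytes also express, was at 4514, 4592 and 4232 in control and at 331, 390 and 579 in KO. The fall was -3.40 ± 0.18 (adjusted p = 9.8e-08), or 10.5 times lower, and neither receptor's groups overlapped. The antisense gene Gm16159 overlaps an exon of Fgfr1, had a mean of 15.0 normalized counts over the 6 libraries, and cannot be told apart from Fgfr1 where both are covered, since no source used here says whether strand was counted. Gene models on the opposite strand also overlap exons of Fgfr3 and Spry1. In GENCODE M21, an exon of Fgfr2 overlaps the span of Ctbp2 on the same strand. Ctbp2 had a mean of 1534 normalized counts over the 6 libraries against 2439 for Fgfr2. Whether exons of both genes overlap, and how reads there were counted, is not known here.

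The receptors did not fall by the same amount within a library. On the log2 scale, the ratio of Fgfr3 to Fgfr1 was 0.66 ± 0.06 in control (SD, n = 3) and -0.61 ± 0.30 in KO, and that of Fgfr3 to Fgfr2 was 0.97 ± 0.15 in control and -0.88 ± 0.55 in KO. The ratio of Fgfr2 to Fgfr1 moved the other way, from -0.31 ± 0.09 to 0.27 ± 0.25. The control and KO ratios did not overlap for any of these 3 pairs, and each gave an exact two-sided permutation p of 0.1, the smallest that 3 against 3 libraries allow. Adjusted over the 9 pairs compared within families, these p-values were 0.11, so none can pass 0.05 in this design.

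Divided by the length of the union of their exons, the receptors summed to 2406, 2287 and 1956 normalized counts per kb in control and to 87.3, 118 and 125 in KO, a ratio of means of 20.1. Fgfr3 made up 55.1 ± 1.71% of this sum in control and 29.7 ± 6.19% in KO. Fgfr1 went from 25.3 ± 0.33% to 32.4 ± 0.54%, and Fgfr2 from 19.5 ± 1.39% to 37.8 ± 6.44%. Fgfr3 was the leading receptor in each control library. In KO the library values of the 3 receptors overlapped per kb, at 32.5 ± 8.23 for Fgfr3, 35.6 ± 5.95 for Fgfr1 and 41.9 ± 12.6 for Fgfr2. With the length of the longest transcript instead, they were at 54.8 ± 13.9, 69.8 ± 11.7 and 97.8 ± 29.3, and every KO library of Fgfr2 lay above every one of Fgfr3.

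**Figure D2:**
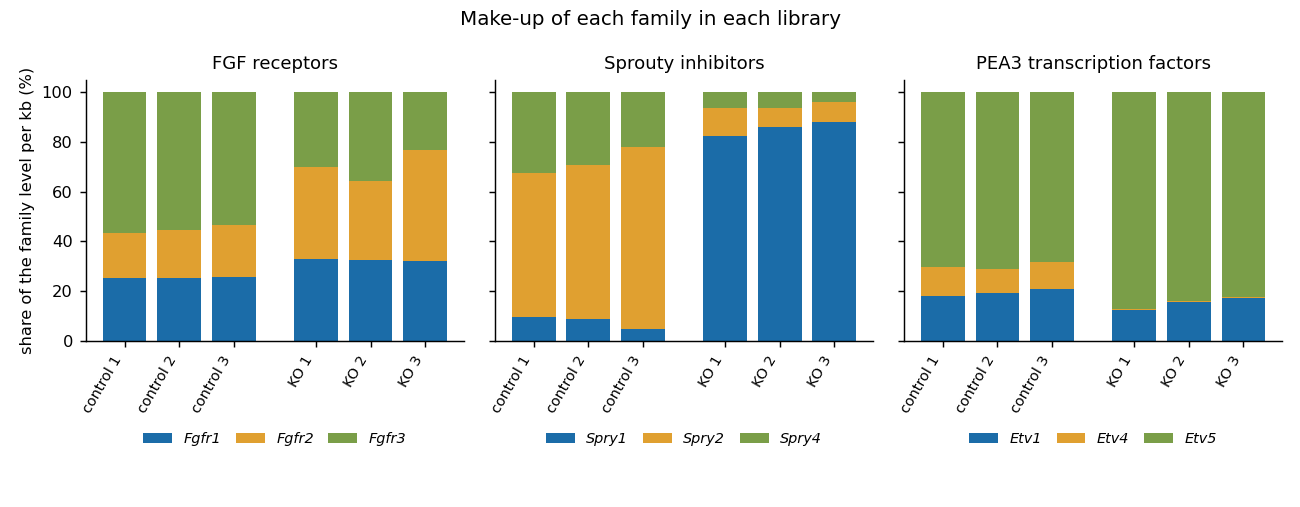
Share of each gene in the summed level per kb of its family, in percent, in each of the 6 libraries, with lengths from the union of exons. Fgfr3 was 53.3 to 56.7% of the receptors in control and 23.2 to 35.6% in KO, and Spry1 was 4.66 to 9.40% of the Sprouty genes in control and 82.3 to 88.1% in KO.

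For each receptor, the genes with the closest profiles over the 6 libraries were found among 11914 tested genes with a mean of at least 100 normalized counts, by the root mean square difference of centred log2 values. They were Cit, the citron kinase, and the ion channel gene Trpm3 for Fgfr1 (differences of 0.043 and 0.056), Ddo, the D-aspartate oxidase, and Cobll1 for Fgfr2 (0.089 and 0.11), and Cth, the cystathionine gamma-lyase, and Micall2 for Fgfr3 (0.10 and 0.11). All 6 had, like the receptors, a lower level in KO than in control, for example 2026 normalized counts in control and 123 in KO for Cit. This follows from the way they were chosen.

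The Sprouty genes split. Spry2 (chr14:105891947-105896819, minus strand) was at 1401, 1848 and 2274 normalized counts in the controls and at 72.5, 82.5 and 85.1 in the KO libraries. It fell by 4.48 ± 0.19 on the log2 scale (adjusted p = 3.0e-08), 22.4 times lower. Spry4 was at 1806, 1994 and 1567 in control and at 93.3, 156 and 92.7 in KO, a log2 fold change of -4.00 ± 0.21 (adjusted p = 9.9e-08). For both genes every KO library was below every control library.

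Spry1 (chr3:37639947-37644599, plus strand) moved against its relatives. It was at 317, 352 and 202 normalized counts in the controls and at 734, 1272 and 1297 in the KO libraries, again with no overlap. The log2 fold change was 1.91 ± 0.26 (adjusted p = 8.8e-05), or 3.76 times higher. It was the lowest of the 3 Sprouty genes in every control library and the highest in every KO library.

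Within libraries, the log2 ratio of Spry2 to Spry1 went from 2.67 ± 0.72 in control to -3.72 ± 0.35 in KO, and that of Spry4 to Spry1 from 2.65 ± 0.26 to -3.26 ± 0.47, both without overlap (exact two-sided permutation p = 0.1, adjusted p = 0.11). The ratio of Spry4 to Spry2 was -0.02 ± 0.47 in control and 0.47 ± 0.41 in KO, which overlapped (exact two-sided permutation p = 0.3). Per kb, Spry1 took 7.52 ± 2.52% of the family in control and 85.4 ± 2.93% in KO, while Spry2 went from 64.4 ± 7.92% to 9.04 ± 1.98%. The summed family level, not divided by length, was 3525 to 4194 normalized counts in control and 899 to 1510 in KO, so the rise of Spry1 was smaller than the fall of the other two.

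The promoters of Fgfr3, which fell most, of the Sprouty pair that moved in opposite directions, and of Dusp6, which rose, are shown for comparison. The 250 bases before the annotated start are RefSeq sequence of GRCm38.p6, 5′ to 3′ on the gene's strand. Capitals mark GGAAG, the core of ETS factor sites, or its reverse complement CTTCC, and ACAATG or ACAAAG, cores of SOX factor sites, or their reverse complements CATTGT and CTTTGT. They are Fgfr3 at chr5:33721474-33721723 (plus strand, the first of its 2 start sites), Spry1 at chr3:37639697-37639946 (plus strand), Spry2 at chr14:105896820-105897069 (minus strand) and Dusp6 at chr10:99262981-99263230 (plus strand).
Fgfr3: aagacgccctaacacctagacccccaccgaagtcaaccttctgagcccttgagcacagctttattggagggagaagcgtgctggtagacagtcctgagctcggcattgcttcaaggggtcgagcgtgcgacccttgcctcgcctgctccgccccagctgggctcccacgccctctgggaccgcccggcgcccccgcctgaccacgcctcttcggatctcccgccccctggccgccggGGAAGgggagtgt
Spry1: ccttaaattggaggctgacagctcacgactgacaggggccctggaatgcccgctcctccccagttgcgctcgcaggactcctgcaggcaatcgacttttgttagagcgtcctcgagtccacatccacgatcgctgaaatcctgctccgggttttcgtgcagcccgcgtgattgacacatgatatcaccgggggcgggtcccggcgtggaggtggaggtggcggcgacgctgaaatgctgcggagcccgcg
Spry2: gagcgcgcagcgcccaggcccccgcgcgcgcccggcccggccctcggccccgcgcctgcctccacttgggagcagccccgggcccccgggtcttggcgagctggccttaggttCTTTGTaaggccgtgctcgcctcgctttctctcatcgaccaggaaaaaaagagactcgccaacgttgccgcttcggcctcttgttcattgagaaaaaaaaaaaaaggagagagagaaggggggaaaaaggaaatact
Dusp6: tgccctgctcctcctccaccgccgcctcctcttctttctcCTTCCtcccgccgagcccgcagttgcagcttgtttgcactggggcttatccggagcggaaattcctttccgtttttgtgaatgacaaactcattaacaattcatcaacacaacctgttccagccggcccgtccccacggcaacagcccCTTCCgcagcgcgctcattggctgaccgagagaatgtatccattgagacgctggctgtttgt

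Among these sequences, GGAAG or CTTCC was found in those of Fgfr3 and Dusp6, the latter at 2 places, CTTTGT was found in that of Spry2, and that of Spry1 held none of the motifs. Counting also 50 bases after the start, 7 of the 10 members had a promoter in the RefSeq table, with 10 start sites between them. GGAAG or its complement was in 7 of these 10 windows, against 71.4% of all 32851 promoters of the same length. ACAAAG was in 2 of the 10, against 18.7% of all, and ACAATG in 0 of the 10, against 12.6%. A match to these short motifs describes letters and not binding.

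The PEA3 factors showed 3 different outcomes. Etv4 (chr11:101769747-101785310, minus strand) was at 643, 502 and 531 normalized counts in control and at 22.8, 18.9 and 24.3 in KO. The KO values rest on 23, 48 and 16 reads, and the groups lay far apart. The log2 fold change was -4.60 ± 0.23 (adjusted p = 7.6e-08), or 24.3 times lower, next to Fgfr3 among the members.

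Etv1 (chr12:38780082-38870483, plus strand), which is also known from olfactory bulb neurons, was at 4204, 4187 and 4358 normalized counts in control and at 2444, 2971 and 2760 in KO. All KO libraries were lower, by a log2 fold change of -0.65 ± 0.09 (adjusted p = 0.00017), or 1.56 times. This is just past the fold threshold, and without KO replicate 1 the change was -0.57 (adjusted p = 0.0007) and no longer reached 1.5-fold.

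Etv5 (chr16:22381313-22439570, minus strand) was at 5122, 4804 and 4401 normalized counts in control and at 5401, 4910 and 4118 in KO, with the ranges overlapping. Its log2 fold change was 0.00 ± 0.11, with a 95% interval from -0.25 to 0.26 (adjusted p = 0.98). Its sign depended on the scaling, with -0.24 when libraries were brought to the same total and -0.35 under quantile normalization, and it was called under none of the alternatives run. Those scalings moved the median of all genes by -0.24 and 0.27.

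The log2 ratio of Etv4 to Etv1 within a library fell from -2.93 ± 0.20 to -6.89 ± 0.29, and that of Etv5 to Etv1 went from 0.17 ± 0.14 to 0.82 ± 0.29, both without overlap (exact two-sided permutation p = 0.1, adjusted p = 0.11). Per kb, Etv5 led the family in every library, with 69.9 ± 1.48% of its level in control and 84.5 ± 2.55% in KO. Etv4 went from 10.8 ± 0.94% to 0.52 ± 0.11%.

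Dusp6 (chr10:99263231-99267489, plus strand), the cytoplasmic phosphatase that is specific for ERK, rose. It was at 4862, 4170 and 2784 normalized counts in control and at 10109, 10452 and 13077 in KO, without overlap. The log2 fold change was 1.54 ± 0.18 (adjusted p = 4.0e-05), or 2.90 times higher. The controls spread more for Dusp6 (coefficient of variation 26.9%) and Spry1 (27.1%) than for any other member, and control replicate 3 was the lowest of them for both genes.

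Per kb of exon union, the order of the members in control was Dusp6 (1257 ± 338), Fgfr3 (1225 ± 165), Etv5 (1164 ± 88.1), Spry2 (882 ± 209), Fgfr1 (561 ± 52.2), Fgfr2 (430 ± 18.3), Spry4 (376 ± 45.0), Etv1 (320 ± 7.09), Etv4 (180 ± 24.0) and Spry1 (99.9 ± 27.1). The library values of neighbours overlapped among the first 4 and between Fgfr2 and Spry4. In KO the order was Dusp6 (3580 ± 518), Etv5 (1172 ± 158), Spry1 (379 ± 110), Etv1 (205 ± 19.96), Fgfr2 (41.9 ± 12.6), Spry2 (38.3 ± 3.19), Fgfr1 (35.6 ± 5.95), Fgfr3 (32.5 ± 8.23), Spry4 (24.0 ± 7.69) and Etv4 (7.10 ± 0.89). There, neighbours from Fgfr2 to Spry4 overlapped, and a gap separated them from Etv1 above and from Etv4 below. The order depends on the length used. With the longest transcript it was Fgfr3 (2065), Dusp6 (1409), Etv5 (1201), Fgfr1 (1100), Fgfr2 (1004), Spry2 (882), Etv1 (646), Spry4 (376), Etv4 (233) and Spry1 (105) in control. In KO, Etv1 (414) was then above Spry1 (397), and Fgfr1 (69.8) and Fgfr3 (54.8) were above Spry2 (38.3). Dusp6, Etv5, Spry1 and Etv1, which with either length held the upper 4 places in KO, are the members that rose, were not called or fell by the least.

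The members were then set beside the cell type markers of the same libraries. Of the 12 astrocyte markers, 6 fell less than Fgfr1, 4 less than Fgfr2, 7 less than Spry4, 11 less than Spry2, and all 12 less than Fgfr3 and Etv4. None of the 12 fell as little as Etv1. The log2 ratio of Fgfr3 to the mean of the astrocyte markers in the same library was -1.34 ± 0.12 in control and -2.82 ± 0.27 in KO, a difference of -1.48, and those of Etv4 and Spry2 differed by -0.83 and -0.71. For Fgfr1 the difference was -0.21, for Fgfr2 0.38 and for Spry4 -0.22. The Spry4 ratios overlapped between groups (exact two-sided permutation p = 0.5) and those of the others did not (exact two-sided permutation p = 0.1). Spry1, Dusp6, Etv5 and Etv1 went up against the astrocyte markers, by 5.68, 5.31, 3.78 and 3.13.

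Against the mean of the 11 microglia markers, a reference chosen after the values had been seen, the log2 ratio of Spry1 was -5.25 ± 0.39 in control and -5.17 ± 0.49 in KO (exact two-sided permutation p = 0.8). That of Dusp6 was -1.49 ± 0.35 and -1.79 ± 0.28 (exact two-sided permutation p = 0.2). The groups overlapped for both genes. For Etv5 and Etv1 the differences were -1.83 and -2.48, and for the other 6 members they lay between -7.08 and -5.23, all without overlap. Markers of olfactory bulb neuroblasts (log2 fold changes from -4.72 to -3.29) and oligodendrocyte precursors (-4.14 to -2.29) also fell. The members were not set beside these 2 lists. The markers of all these cell types moved along with the members, and their part in these results was not tested.

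**Figure D3:**
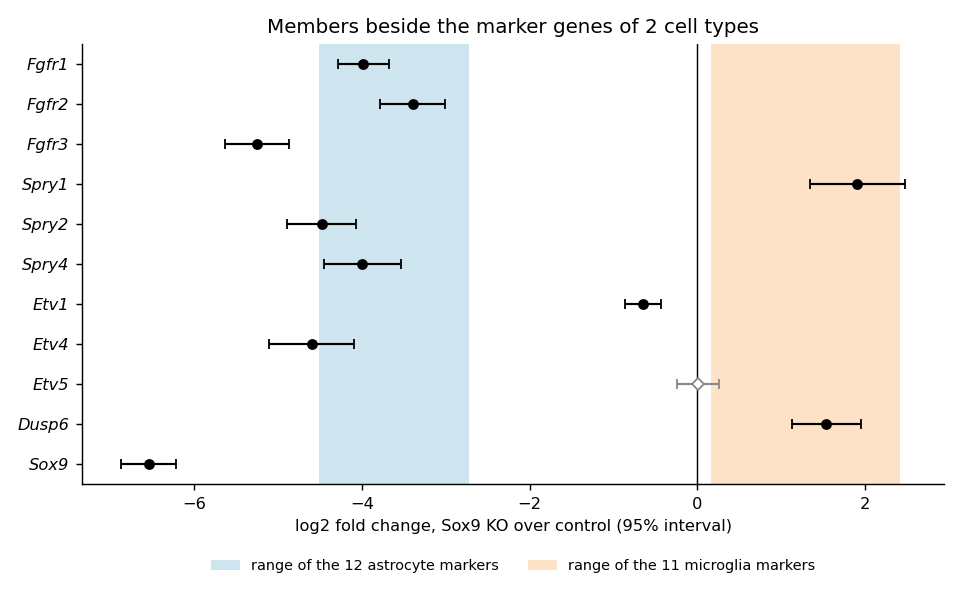
Log2 fold changes of Sox9 KO over control with 95% intervals from limma (filled, called; open diamond, not called) for the 10 members and Sox9. The bands span the 12 astrocyte markers (-4.51 to -2.72) and the 11 microglia markers (0.16 to 2.42). The lower edge of the microglia band is the 1 marker not called, and the others start at 1.43. Only Fgfr3 and Etv4 of the members lie below the astrocyte band.

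The rest of the FGF pathway was read from 7 lists of 85 genes, of which 76 were tested. Of these, 34 fell, 15 rose and 27 were not called. Over all genes tested, 28.8% fell and 22.2% rose, which is the background for each list below. Of 18 FGF ligands, 10 were tested and 4 were at 0 in every library. In KO 6 of the 10 fell and none rose, with a median log2 fold change of -1.89. All KO libraries lay below all control libraries for 5 of the ligands, against 6396 of all 18413 genes tested. Apart from Fgf1, the ligands that fell were low, at no more than 78.6 normalized counts on average in control. Fgf1, a ligand of all FGF receptors, was the most abundant, at 21352, 25325 and 20136 normalized counts in control and 704, 693 and 808 in KO (-4.92 ± 0.11, adjusted p = 2.5e-09). Fgf9 fell from 71.8 ± 28.4 to 10.2 ± 3.37 (-2.66 ± 0.46, adjusted p = 0.00051). Fgf18 was counted with 50, 131 and 46 reads in control and with 1, 0 and 1 in KO, too few for the size of its fall to be read (adjusted p = 6.4e-06).

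The 4 FGF homologous factors, which stay inside the cell and bind sodium channels rather than receptors, all fell. Fgf12 went from 1848 ± 103 to 238 ± 21.2 normalized counts, Fgf11 from 571 ± 40.4 to 261 ± 94.2 and Fgf13 from 371 ± 31.0 to 144 ± 27.2. Their log2 fold changes were -2.96, -1.18 and -1.37.

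Of 9 other receptors, co-receptors and FGF-binding proteins, 5 fell and 1 rose. Fgfrl1, a receptor without a kinase domain, fell from 1524 ± 163 to 134 ± 10.9 normalized counts (-3.49 ± 0.14, adjusted p = 2.4e-08). Flrt1 and Flrt2, membrane proteins that bind FGF receptors and latrophilins, fell by 4.21 ± 0.37 and 1.38 ± 0.21 on the log2 scale (adjusted p = 4.1e-06 and 0.0002). The 1 gene that rose was the co-receptor Klb, named after its values had been seen, at 2 to 9 reads in control and 10 to 46 in KO (1.57 ± 0.53, adjusted p = 0.026). It was not called without control replicate 1 or 2 or without KO replicate 1 or 2, nor with libraries brought to the same total or with DESeq2, and the count of genes that rose was then 0.

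Heparan sulfate proteoglycans present FGFs to their receptors, and 8 of their 10 core proteins fell while none rose, although 1 was called higher under quantile normalization. Sdc3, the most abundant, was at 11750 ± 1102 normalized counts in control and 10858 ± 1644 in KO (-0.12 ± 0.12, adjusted p = 0.42). Sdc4 fell from 8478 ± 985 to 3225 ± 482 and Sdc2 from 2878 ± 299 to 315 ± 50.9, log2 fold changes of -1.40 and -3.20. Sdc1 had the largest change, from 316 ± 30.2 to 13.7 ± 5.03 (-4.49 ± 0.33, adjusted p = 1.2e-06).

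Of 23 adaptors and kinases between receptor and ERK, 5 rose, 4 fell and 14 were not called, where 22.2% of all genes tested rose and 28.8% fell, and the median was 0.33. With libraries brought to the same total without Rn45s, 3 were called higher and 7 lower. Nras, which carries the signal to the RAF kinases, was at 5000 ± 672 normalized counts in control and 5370 ± 257 in KO (0.11 ± 0.11, adjusted p = 0.40). The ERK targets Rps6ka1 and Rps6ka3, which encode RSK kinases, rose by 1.84 ± 0.14 and 1.12 ± 0.11 (adjusted p = 1.1e-06 and 1.1e-05).

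Among 11 tested inhibitors of the ERK cascade outside the members, 5 rose, 4 fell and 2 were not called. Dusp1, a nuclear phosphatase of MAP kinases, rose from 15575 ± 2327 to 60156 ± 5467 normalized counts (1.96 ± 0.13, adjusted p = 4.6e-07), and Cbl, a ubiquitin ligase of receptor tyrosine kinases, rose by 1.12 ± 0.08 (adjusted p = 1.2e-06). Il17rd, also called Sef, an inhibitor that FGF signaling itself induces, fell from 859 ± 86.9 to 60.2 ± 34.8 (-3.96 ± 0.34, adjusted p = 3.5e-06). Spred1 was at 6195 ± 248 in control and 6003 ± 57.5 in KO (-0.04 ± 0.08, adjusted p = 0.65).

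Of 9 other ERK-responsive transcripts, 4 rose and 3 fell. The immediate early genes Egr1 and Fos were the most abundant and rose by 1.63 ± 0.15 and 1.99 ± 0.15 on the log2 scale (adjusted p = 4.4e-06 and 1.0e-06), to 196869 ± 28558 and 91671 ± 8856 normalized counts in KO. Ier3 rose from 3260 ± 508 to 6306 ± 802. These are RNA levels of cells that were digested and sorted before lysis, and ERK activity was not measured. Fosl1, a FOS relative, was counted with 36, 128 and 39 reads in control and 0, 20 and 0 in KO (adjusted p = 0.00034), so that its fitted change depends on the pseudocount.

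**Figure D4:**
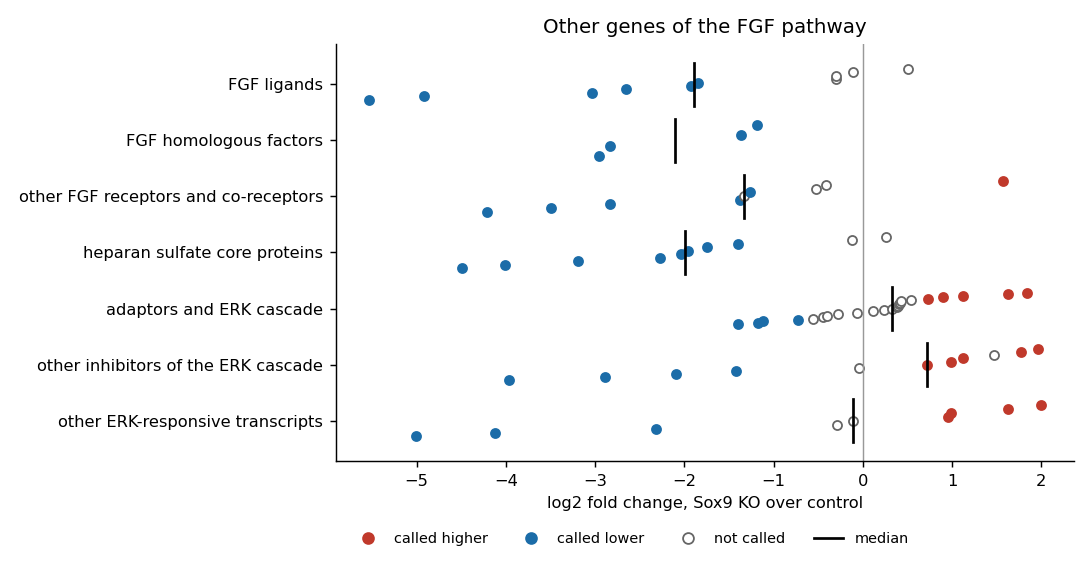
Log2 fold changes of Sox9 KO over control for the 76 tested genes of 7 FGF pathway lists, 1 point per gene, with a line at each list's median. The ligands, homologous factors, other receptors with co-receptors and FGF-binding proteins, and heparan sulfate core proteins lie mostly below 0. Their medians run from -2.10 to -1.33. The adaptors and ERK cascade lie on both sides of 0 (median 0.33).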

How the data were processed

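The authors mapped reads to mm10 with STAR 2.5.0a, counted them per gene and normalized with DESeq2 1.20.0. The deposited signal values carry the name RPM, but in every library 100% of them were whole multiples of 1 step within 0.01 read, which makes each value a number of reads over its library's size factor, named normalized count here. A single read was worth 0.395 to 1.58 normalized counts. The log2 test planned for RPM was kept. The 18413 genes whose mean reached 1 (6008 did not) were fitted on log2(normalized count + 1) by limma 3.58.1, run in R 4.3.3 with a variance trend, two-sided, with Benjamini-Hochberg adjustment over all genes tested. Fold changes on this scale understate those of low genes. Recovered whole reads were tested with edgeR 4.0.16 and DESeq2 1.42.0. The test was checked on simulated data. No value column was left unused (0).

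The 10 members and all gene lists were chosen with earlier results of these data known. The genes named are the members, Sox9, in each pathway list the 3 most abundant tested genes and the called gene with the largest change, in each cell type list the 2 most abundant, and for each receptor the 2 genes with the closest profile; Klb, Gm16159, Ctbp2 and Rn45s lie outside this rule. A few genes named by it are not reported here. Exon lengths came from GENCODE M21, coordinates and promoters from RefSeq GRCm38.p6. Fgfr1, Spry4 and Etv4 had no entry in the promoter table. Paired replicate numbers, other scalings, filters and pseudocounts and the loss of each library were tried as alternatives.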

Additional observations from a re-analysis of the deposited data

How the results depend on the processing

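The 2 members called higher stayed at 2 under all 20 alternatives, and the members called lower numbered 7 except without KO replicate 1, where Etv1 was at -0.57 and the count was 6. Over the alternatives the log2 fold changes ran from -4.31 to -3.84 for Fgfr1, -3.72 to -3.22 for Fgfr2, -5.58 to -5.12 for Fgfr3, 1.59 to 2.18 for Spry1, -4.81 to -4.11 for Spry2, -4.32 to -3.66 for Spry4, -4.92 to -3.99 for Etv4 and 1.159 to 1.71 for Dusp6. Etv5 changed sign with the libraries brought to the same total (-0.24), to the same total without Rn45s (-0.32) and under quantile normalization (-0.35). The limma adjusted p-values were 0.065, 0.023 and 0.014, and none of these changes reached 1.5-fold. With 1 library left out, Etv5 ran from -0.084 to 0.11 (-0.053, -0.084 and -0.015 without control replicate 3 and KO replicates 1 and 2), and Etv1 from -0.71 to -0.57. These 3 scalings moved the median of all genes by -0.24, -0.32 and 0.27, and the share of calls that were lower, 56.4% as deposited, was 67.8, 71.5 and 43.5%. Less that shift, Etv1 ran from -1.20 to -0.58, Etv5 from -0.62 to 0.13 and Dusp6 from 0.89 to 1.71 over the alternatives.

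With the replicate block, 9275 genes were called instead of 9389, and no member or named pathway gene changed its call; FGF ligands called lower numbered 5 instead of 6. The labels tie same-numbered libraries to nothing in common, and the deviations of same-numbered libraries correlated at -0.05, -0.01 and -0.01. Among other named genes, Nras was at -0.13, -0.22 and -0.27 under the same 3 scalings and at -0.00579 without control replicate 1 (up to 0.17 without control replicate 2), Sdc3 at 0.010 without KO replicate 2 (down to -0.20 without KO replicate 3), and Spred1 at 0.00698 with edgeR, none of them called there. Sdc3 (-0.64) passed the fold threshold under quantile normalization. With no fold threshold, 12 of the 23 adaptors and kinases were called higher and 7 lower, and of all 18413 genes tested 5400 and 5885. Against microglia instead of astrocyte markers, the differences of Fgfr2, Etv1, Etv5 and Dusp6 changed sign, to -5.23, -2.48, -1.83 and -0.29. With lengths of the longest transcript, the Fgfr3 share of the receptors was 49.4% in control and 24.9% in KO, and that of Fgfr2 24.2 and 43.6%. The KO values of Fgf18, Fosl1 and Etv4 rest on few reads. The cause of these differences was not tested.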

Other observations

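Markers of other cell types were measured in the same libraries, where 28.8% of all genes tested fell and 22.2% rose. Of 12 neuron markers, 11 fell and none rose, with Snap25 at 8498 ± 1323 normalized counts (mean ± SD of 3 libraries) in control against 1554 ± 604 in KO and Syt1 at 4479 ± 522 and 674 ± 177. All 8 markers of olfactory bulb neuroblasts fell, Dcx from 2206 ± 513 to 88.3 ± 39.1 and Cd24a from 1478 ± 433 to 140 ± 63.6. All 6 markers of oligodendrocyte precursors fell, with Olig1 at 3150 ± 419 and 270 ± 54.3 and Vcan at 2175 ± 467 and 407 ± 102, and all 7 of oligodendrocytes, with Mbp at 18665 ± 3784 and 8935 ± 2775. In the astrocyte list, Slc1a3 went from 65973 ± 3788 to 10062 ± 1135.

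Border macrophage markers were mixed, with 2 of 6 higher (Mrc1, 11774 ± 2398 and 18847 ± 819) and 4 lower (F13a1, 2595 ± 633 and 1474 ± 169). Of 7 endothelial markers, 2 rose (Flt1, 592 ± 95.8 and 1028 ± 123; Kdr, 274 ± 156 and 522 ± 53.3) and 3 fell. Of 6 mural cell markers, 3 fell and none rose, with Pdgfrb at 940 ± 165 and 92.8 ± 17.2 and Rgs5 at 680 ± 159 and 155 ± 113. None of 5 fibroblast markers was called, with Dcn at 559 ± 191 and 351 ± 118 and Col1a2 at 208 ± 69.0 and 171 ± 35.0. All 4 markers of olfactory ensheathing cells fell (Frzb, 1483 ± 274 and 764 ± 281; Npy, 1253 ± 137 and 862 ± 314), and 1 of 3 ependymal markers fell, Foxj1 from 926 ± 176 to 103 ± 14.2, while Ccdc153 was at 11.4 ± 4.21 and 8.10 ± 3.04.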
